A study of Mus musculus and Rattus norvegicus with 30 samples.

Results

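The opioid system of the dorsal root ganglion (DRG), the cluster of sensory neuron cell bodies beside the spinal cord, was described through 8 genes taken by their symbols from the mouse and rat feature tables. There are 4 receptors, Oprm1 (mu), Oprd1 (delta), Oprk1 (kappa) and Oprl1 (nociceptin receptor), and 4 precursors that are cleaved into the peptides acting on them, Penk (enkephalins), Pdyn (dynorphins), Pnoc (nociceptin) and Pomc (beta-endorphin). These 8 genes stand among 54315 features listed for mouse and 39281 for rat. After the filter on low counts 7 of the 8 could be tested in each species, all but Pnoc.

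Mouse ganglia of lumbar levels L3 and L4 came from BALB/c and B10.D2 animals of both sexes, 1 animal per library. Spared nerve injury (SNI) cut the common peroneal and sural branches of the sciatic nerve and left the tibial branch, and sham surgery exposed the nerve only. For BALB/c there were 6 libraries from sham and 4 from SNI animals, and for B10.D2 there were 5 of each, all made after removal of ribosomal RNA, with totals of 29989963 to 41881331 counts. Rat L5 ganglia came from male Wistar rats, 3 animals pooled per library, with 4 sham libraries and 4 after spinal nerve transection (SNT), in which the left L5 spinal nerve was tied and cut. The rat libraries were made from polyadenylated RNA and had totals of 11954612 to 17887909 counts. All 4 mouse groups held females and males. A further 2 mouse samples, 1 from an injured BALB/c and 1 from a sham-operated B10.D2 animal, were not analysed here.

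Opioid receptors couple to inhibitory G proteins (Gi/o). In sensory neurons they are known to close voltage-gated calcium channels, to open G protein-gated potassium channels and to reduce transmitter release, and this is one route by which opioids relieve pain. The nociceptin receptor shares this coupling but does not bind classical opioids with high affinity. The precursors are cut by prohormone convertases, and the released peptides are broken down by surface peptidases such as neprilysin.

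Before any result, 2 rat libraries stood apart. The first principal component placed rat sham libraries 1 to 3 at -48.7 to -35.7 and SNT libraries 2 to 4 at 30.6 to 49.9. Sham library 4 scored -6.33 and SNT library 1 scored 1.09, in the gap that separates them. The summed level of the injured-neuron markers was 716 CPM (read counts scaled to the size of each library) in sham library 4 against 221 to 249 in the other 3 sham libraries, and 949 in SNT library 1 against 1075 to 1421 in the other 3. Rat log2 fold changes of the tested members, of their neighbouring LncRNAs and of the named list and marker genes are therefore given over all 8 libraries and without these 2. In each group the library left out was that nearest the other group on this component. This choice by itself tends to widen the changes and lower the p-values. Rat features at an adjusted p under 0.05 numbered 3753 over all 8 libraries and 6100 without these 2. The values without these 2 are therefore not a separate test of a change. In mouse, B10.D2 SNI library 76 stood apart in the same markers, at 208 CPM against 391 to 501 in the other 4 of its group. In mouse, 10 of the 10 injured-neuron markers tested (of 11 listed) were higher after SNI in both strains, and in rat 7 of the 8 tested were higher. All 8 sensory neuron markers were detected in mouse. Among the rat features, 5 of 7 sensory neuron markers were listed at 0 in every library, as were genes that every cell uses, such as Actb, so an entry of 0 in rat was read only as a listed 0. Of all rat features 43.4% were listed at 0 throughout, against 22.9% in mouse. In whole ganglia, fewer cells of a type and less RNA per cell cannot be told apart.

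Oprd1 and Oprl1, lower after SNI in both mouse strains, and Pdyn, higher in BALB/c alone, differ in base content before their transcription starts. The 250 bases before the RefSeq start (GRCm38.p6, the reference mouse strain, not BALB/c or B10.D2) are shown for them, read 5′ to 3′ on the coding strand, with each CpG dinucleotide in capitals. For Oprl1 and Pdyn, which have 3 and 2 listed starts, the most upstream start is shown.
Oprd1, chr4:132144487-132144736, minus strand: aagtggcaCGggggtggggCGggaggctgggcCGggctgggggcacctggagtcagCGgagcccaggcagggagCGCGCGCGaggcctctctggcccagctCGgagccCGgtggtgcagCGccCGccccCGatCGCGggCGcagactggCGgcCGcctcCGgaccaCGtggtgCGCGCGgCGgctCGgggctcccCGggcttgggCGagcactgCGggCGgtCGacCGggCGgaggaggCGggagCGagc
Oprl1, chr2:181714766-181715015, plus strand: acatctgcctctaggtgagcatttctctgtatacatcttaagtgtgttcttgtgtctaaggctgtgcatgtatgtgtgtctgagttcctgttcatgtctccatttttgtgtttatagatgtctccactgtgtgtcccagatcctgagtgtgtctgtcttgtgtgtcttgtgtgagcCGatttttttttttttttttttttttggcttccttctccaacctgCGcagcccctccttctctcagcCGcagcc
Pdyn, chr2:129699939-129700188, minus strand: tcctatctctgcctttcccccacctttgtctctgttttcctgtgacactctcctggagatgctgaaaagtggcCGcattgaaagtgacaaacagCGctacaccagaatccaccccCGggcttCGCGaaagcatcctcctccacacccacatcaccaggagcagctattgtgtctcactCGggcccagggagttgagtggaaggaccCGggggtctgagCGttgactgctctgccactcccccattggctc
The Oprd1 window held 34 CpG dinucleotides and 80.0% G or C, that of Oprl1 held 3 and 44.4%, and that of Pdyn held 8 and 57.2%. The median over 32851 windows of this length was 6 CpG dinucleotides. The letters TGACGTCA (the cyclic AMP response element) and TGANTCA (AP-1), searched on both strands, were found in none of the 10 windows listed for Oprm1, Oprd1, Oprl1, Pdyn and Pomc. They occurred in 1.55% and 6.75% of all windows. No window was listed for Oprk1, Penk or Pnoc.

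**Figure D1:**
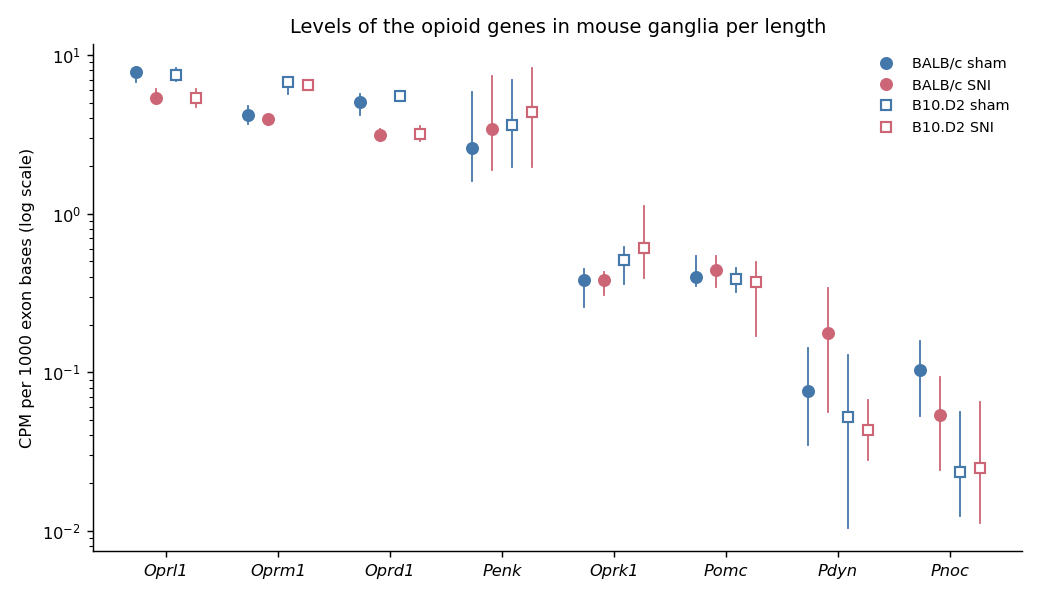
CPM per 1000 exon bases (vertical, log scale) of the 8 genes in the 4 mouse groups, with the mean as a symbol and the range over libraries as a line. Oprl1, Oprm1, Oprd1 and Penk lie between 1.60 and 8.41 in every library, and Oprk1, Pomc, Pdyn and Pnoc lie at or below 1.12.

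Per length, 3 receptors and Penk led in mouse ganglia. In BALB/c sham ganglia Oprl1 had the highest level, 7.84 ± 0.650 CPM per 1000 exon bases (SD, n = 6), and its libraries did not overlap those of Oprd1, 5.06 ± 0.558. Oprd1, Oprm1 (4.17 ± 0.414) and Penk (2.61 ± 1.63) followed, and each overlapped its neighbour in this order. Penk did not overlap Pomc (0.397 ± 0.0738), and Pomc and Oprk1 (0.384 ± 0.0731) overlapped. Pnoc (0.103 ± 0.0425) and Pdyn (0.0764 ± 0.0403) were lowest and overlapped. In B10.D2 sham ganglia the means ran Oprl1 7.45 ± 0.535, Oprm1 6.76 ± 0.633 and Oprd1 5.54 ± 0.192 (SD, n = 5), then Penk at 3.63 with a range of 1.98 to 6.99, and each of these overlapped the next. After SNI the mean of Oprd1 stood below that of Penk in both strains, with overlapping libraries. Exon lengths are from GENCODE and join all annotated exons of a gene, 8037 bases for Oprm1 and 3753 for Oprl1. The order depends on this choice of length. By CPM alone the mean of Oprm1 was the highest in every mouse group. It was 33.5 against 29.4 for Oprl1 in BALB/c sham and 54.3 against 28.0 in B10.D2 sham. The rat levels could not be put on this scale here.

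Delta receptor messenger RNA was lower after nerve injury in both mouse strains and in rat. Oprd1 (chr4:132110726-132144486 in mm10, minus strand, 3 exons) measured 16.7, 19.7, 19.8, 20.3, 22.4 and 23.0 CPM in the BALB/c sham libraries and 11.5, 12.3, 12.7 and 13.8 CPM in the BALB/c SNI libraries. In B10.D2 it measured 21.1, 22.1, 22.3, 22.8 and 23.2 CPM in sham and 11.6, 11.98, 12.5, 13.6 and 14.4 CPM in SNI. No SNI library reached the lowest sham library of its strain. The log2 fold change was -0.70 (SE 0.083, adjusted p = 9.91e-06) in BALB/c and -0.80 (SE 0.080, adjusted p = 6.60e-06) in B10.D2. The 2 changes differed by -0.10 on the log2 scale (95% interval -0.34 to 0.14). In BALB/c 3 of the 7 tested members passed an adjusted p of 0.05, where 9.69% of all tested features did. One was higher (4.82% of all features were) and 2 were lower (4.87%). In B10.D2 2 of 7 passed, where 4.58% of all features did, and both were lower (2.48%, with 2.10% higher).

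In rat, Oprd1 was low, at 1.91, 5.92, 4.42 and 2.08 CPM in sham libraries 1 to 4 and 2.21, 0.817, 0.667 and 1.11 CPM in SNT libraries 1 to 4. SNT library 1 stood above sham libraries 1 and 4, so the groups overlapped. Rat Oprd1 changed by -1.59 on the log2 scale (SE 0.467, adjusted p = 0.0322), and without the 2 libraries that stood apart it was -2.26 (adjusted p = 0.00214). The adjusted p rose above 0.05 when sham library 2 or 3 or SNT library 2, 3 or 4 was left out (0.0762 to 0.0927), with the log2 fold change between -1.21 and -1.54. The counts behind these values were 12 to 97 per library.

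The nociceptin receptor was also lower after injury in all 3 comparisons. Oprl1 (chr2:181715016-181720985, plus strand) measured 25.3, 27.9, 29.5, 31.1, 31.1 and 31.6 CPM in BALB/c sham and 19.0, 19.4, 19.8 and 22.9 CPM in BALB/c SNI. In B10.D2 it measured 25.9, 26.8, 27.3, 29.0 and 30.9 CPM in sham and 17.8, 19.1, 19.8, 20.5 and 23.0 CPM in SNI. The groups did not overlap in either strain. The log2 fold change was -0.54 (SE 0.068, adjusted p = 2.01e-05) in BALB/c and -0.46 (SE 0.066, adjusted p = 0.00022) in B10.D2, and their difference was 0.08 (95% interval -0.11 to 0.28).

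Rat Oprl1 measured 119, 174, 168 and 118 CPM in sham libraries 1 to 4 and 109, 71.9, 71.6 and 108 CPM in SNT libraries 1 to 4. The groups did not overlap, and SNT libraries 1 and 4 lay close to the lower sham pair. Its change was -0.69 on the log2 scale (SE 0.194, adjusted p = 0.0284), or -0.87 (adjusted p = 0.00571) without the 2 libraries that stood apart. It did not pass without sham library 2 or 3 or SNT library 2 or 3 (adjusted p 0.0763 to 0.0844, log2 fold change -0.57 to -0.61). In rat 4 of the 7 tested members passed, where 27.4% of all tested features did. Oprm1, Oprd1 and Oprl1 were lower (15.1% of all features were) and Pdyn was higher (12.3%).

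The mu receptor differed between the mouse strains and was lower after injury in the rat test, not in the mouse tests. Oprm1 (chr10:6758506-7038198, plus strand) measured 29.7 to 38.6 CPM (median 33.1) in the 6 BALB/c sham libraries. In BALB/c SNI it measured 29.1, 32.0, 33.0 and 33.8 CPM. B10.D2 gave 45.5, 54.6, 56.6, 57 and 58 CPM in sham and 48.9, 50.6, 53.4, 53.5 and 54.2 CPM in SNI. Every B10.D2 library stood above every BALB/c library, while sham and SNI overlapped within each strain.

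B10.D2 exceeded BALB/c in Oprm1 by 0.70 on the log2 scale in sham (SE 0.068, adjusted p = 9.38e-08) and by 0.71 after SNI (SE 0.077, adjusted p = 5.28e-07). Reads of both strains were mapped to mm10, a reference from neither strain. The part of this in the strain differences was not tested. Among sham ganglia 21.6% of all tested features passed between the strains, and Oprm1 was the 1 member of 7 that did (11.5% of all features were higher in B10.D2). After SNI 20.8% passed, and the 2 members that did were Oprm1, higher in B10.D2 (10.9% of all features), and Pdyn, lower (9.98%). The change of Oprm1 by SNI was -0.07 in BALB/c (95% interval -0.22 to 0.09) and -0.06 in B10.D2 (95% interval -0.20 to 0.09), neither past the threshold.

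In rat Oprm1 measured 25.4, 35.1, 32.8 and 17.3 CPM in sham libraries 1 to 4 and 12.8, 4.03, 3.00 and 5.24 CPM in SNT libraries 1 to 4. The groups did not overlap, and SNT library 1 came nearest to sham library 4. By edgeR the log2 fold change was -2.15 (SE 0.423, adjusted p = 0.0119), and -2.93 (adjusted p = 2.23e-05) without those 2 libraries. It passed with any 1 rat library left out (adjusted p 0.000414 to 0.0408). The mouse and rat changes come from tables normalized separately and from different injuries, times after surgery, levels, sexes and library types, so their difference was not tested.

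Nociceptor markers were measured in the same libraries. Calca, a peptidergic nociceptor marker, measured 936, 1195, 1169 and 781 CPM in rat sham libraries 1 to 4 and 868, 36.3, 59.8 and 206 CPM in SNT libraries 1 to 4. SNT library 1 lay within the sham range and the other 3 far below it. Over all 8 libraries Calca (log2 fold change -1.80, adjusted p = 0.121) and Tac1 (-1.49, adjusted p = 0.0521) did not pass. Leaving out the 2 libraries that stood apart, which tends to widen the changes, gave -3.45 for Calca (adjusted p = 0.00102) and -2.44 for Tac1 (adjusted p = 0.000177). The nonpeptidergic markers Mrgprd (-3.12, adjusted p = 0.0435) and P2rx3 (-0.84, adjusted p = 0.0363) were lower, at -6.69 and -1.10 without the 2. In mouse, the summed sensory neuron markers ran from 6944 to 7874 CPM in BALB/c sham and 6356 to 7181 in SNI, and from 7052 to 7999 in B10.D2 sham and 6295 to 7483 in SNI. Of these, Snap25 (BALB/c -0.51, B10.D2 -0.43) and Nefh (BALB/c -0.70, B10.D2 -0.50) were lower after SNI. Markers of other cells moved as well. The summed fibroblast markers ran from 2976 to 5330 CPM in rat sham and 6619 to 10775 in SNT, with Col3a1 at 1.02 and Lum at 0.79 on the log2 scale (1.30 and 0.92 without the 2 libraries). The macrophage gene Cx3cr1 (1.35, or 1.70 without the 2) and the T cell gene Cd3e (2.0, or 2.61) were also higher in rat, each the 1 gene of the 2 tested from its list that passed. In BALB/c 3 of 5 macrophage markers were higher, Cx3cr1 by 0.97, Cd68 by 0.62 and Csf1r by 0.47. Lum was higher in both strains, by 0.45 in BALB/c and by 0.52 in B10.D2. The part of these cell type markers in the opioid gene values was not tested.

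The kappa receptor passed in none of the 7 comparisons (edgeR), at an unadjusted p under 0.05 in 1 of them. That was the strain difference after SNI, where 7917 of 24685 features were under it. Oprk1 (chr1:5588466-5606131, plus strand) measured 2.37 to 4.08 CPM (median 3.76) in the 6 BALB/c sham libraries and 2.82, 3.49, 3.64 and 3.94 CPM in BALB/c SNI. In B10.D2 it measured 3.27, 4.10, 4.81, 5.43 and 5.65 CPM in sham and 3.61, 3.8, 4.44, 5.77 and 10.2 CPM in SNI. One B10.D2 SNI library, number 76, stood far above the others of its group with 400 counts, and it is the library with the lowest injured-neuron markers of that group. Without it the B10.D2 changes were -0.79 for Oprd1 (adjusted p = 1.04e-05), -0.45 for Oprl1 (adjusted p = 0.000599) and -0.09 for Oprk1 (adjusted p = 0.877). The log2 difference of B10.D2 from BALB/c after SNI was 0.65 (SE 0.246, adjusted p = 0.0674). It passed with DESeq2 (adjusted p = 0.0442), with no filter on low counts (0.0241) and without B10.D2 SNI library 69 (0.0285) or 90 (0.0387), and it was 0.34 without library 76. In rat Oprk1 measured 9.84, 12.3, 13.7 and 15 CPM in sham and 8.85, 8.98, 15.4 and 15.7 CPM in SNT. These groups overlapped, and the fitted change was -0.05 on the log2 scale (95% interval -0.57 to 0.46), or -0.03 without the 2 libraries that stood apart.

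**Figure D2:**
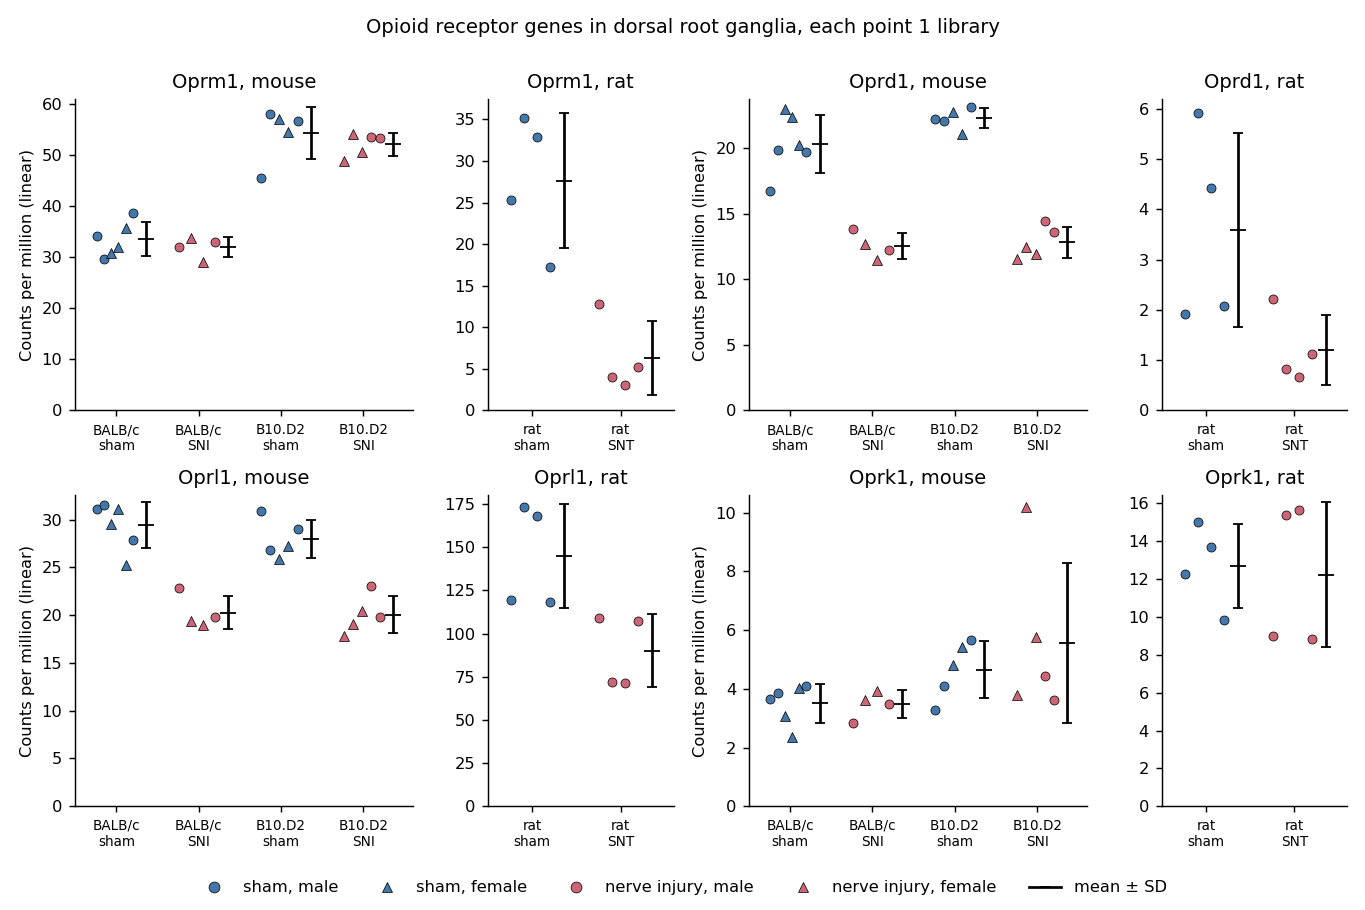
CPM (vertical, linear) of the 4 receptor genes in every library, mouse and rat on separate axes, with circles for males, triangles for females and bars for the mean ± SD. Oprd1 and Oprl1 separate sham from SNI in both strains, Oprm1 separates the strains in mouse and sham from SNT in rat, and Oprk1 shows 1 high B10.D2 SNI library at 10.2 CPM.

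Enkephalin precursor RNA varied most among male mice. Penk (chr4:4133531-4138819, minus strand) measured 2.62, 3.02 and 3.46 CPM in BALB/c sham females and 2.73, 4.17 and 9.56 CPM in BALB/c sham males. After SNI the BALB/c females had 3.08 and 3.86 CPM and the males 3.28 and 12.1 CPM. B10.D2 sham gave 3.23 and 4.39 CPM in females and 4.24, 6.39 and 11.4 CPM in males, and B10.D2 SNI gave 3.24, 3.54 and 4.80 CPM in females and 10.8 and 13.6 CPM in males. The 10 female libraries lay between 2.62 and 4.80 CPM. The male libraries numbered 49 to 60 lay between 2.73 and 6.39 CPM and those numbered 70 to 90 between 9.56 and 13.6 CPM, a split noticed in the values and not tested, and the labels used here do not say what the numbers mark.

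Penk was higher in males by 1.15 on the log2 scale (SE 0.238, adjusted p = 0.0446), where 0.243% of all tested features passed between the sexes and 0.101% were higher in males. The test held only without library 49, 50, 51, 56, 58 or 60 among the 20 that were left out singly, and without any of the other 14 the adjusted p was 0.0514 to 0.119. The change by SNI was 0.35 in BALB/c (95% interval -0.36 to 1.06) and 0.38 in B10.D2 (95% interval -0.31 to 1.06), neither past the threshold. In rat, all male, Penk measured 5.64, 4.76, 5.06 and 2.21 CPM in sham libraries 1 to 4 and 3.92, 0.490, 1.39 and 0.852 CPM in SNT libraries 1 to 4. The groups overlapped through SNT library 1 and sham library 4. Over all 8 libraries the log2 fold change was -1.41 (SE 0.547, adjusted p = 0.0789). Leaving out these libraries, which tends to widen the changes, gave -2.48 (adjusted p = 0.000351) without both. It gave -2.26 (0.00355) without SNT library 1 alone and -1.63 (0.0380) without sham library 4 alone. Penk passed with DESeq2 over all 8 libraries (adjusted p = 0.0293).

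Dynorphin precursor RNA was higher after injury in BALB/c mice and in rat, from low counts in mouse. Pdyn (chr2:129686565-129699844, minus strand) had 8, 10 and 17 counts in BALB/c sham females, 4, 5 and 5 in sham males, 27 and 38 in SNI females and 5 and 8 in SNI males. B10.D2 had 7 and 14 counts in sham females, 1, 2 and 4 in sham males, 4, 6 and 8 in SNI females and 3 and 3 in SNI males. A floor of 3 counts corresponds to 0.0716 to 0.100 CPM in the mouse libraries, and several male values sit at or below it. Both BALB/c SNI females stood above every other mouse library.

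The log2 fold change of Pdyn by SNI was 1.13 in BALB/c (SE 0.298, adjusted p = 0.0182) and -0.51 in B10.D2 (SE 0.387, adjusted p = 0.572). The BALB/c call was lost without SNI library 65 (log2 fold change 0.87, adjusted p = 0.145), without sham library 56 (0.99, 0.0549), without sex as a term (adjusted p = 0.137), among females alone (adjusted p = 0.0692) and with DESeq2 (adjusted p = 0.0558). BALB/c sham library 55, whose summed spinal cord markers were 22.8 CPM against 9.51 to 11.6 in the other 5, had the highest sham level, 0.410 CPM, and without it the change was 1.24 and still passed. The difference between the strains in the change was -1.64 (95% interval -2.66 to -0.62) with an unadjusted p of 0.00314 and an adjusted p of 0.900. No member passed this interaction (edgeR), where 0.0243% of all features did, all of them lower. Pdyn was the 1 member of 7 under an unadjusted p of 0.05, where 1073 of 24685 features were. DESeq2 passed 0 of the members as well. After SNI, B10.D2 stood below BALB/c in Pdyn by -2.08 (SE 0.336, adjusted p = 9.05e-05).

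Pdyn differed between male and female mice by -1.62 on the log2 scale (SE 0.246, adjusted p = 0.00221), lower in males as were 0.142% of all features, and this passed without any 1 of the 20 mouse libraries (adjusted p 0.00124 to 0.0116). In each of the 4 mouse groups every female library stood above every male one. The levels were 0.223 to 0.410 CPM in females and 0.100 to 0.149 in males for BALB/c sham, and 0.677 to 0.985 and 0.162 to 0.227 for BALB/c SNI. For B10.D2 they were 0.190 to 0.373 and 0.0302 to 0.117 in sham, and 0.102 to 0.194 and 0.0803 to 0.0840 in SNI. DESeq2 estimated -1.63 and gave no adjusted p. Whether the change by SNI in BALB/c differed between the sexes was tested after these values were seen, and the difference, male less female, was -0.81 (SE 0.614, unadjusted p = 0.215).

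In rat Pdyn measured 1.08, 0.671, 1.21 and 2.15 CPM in sham libraries 1 to 4 and 2.84, 3.48, 4.61 and 4.98 CPM in SNT libraries 1 to 4. Every SNT library stood above every sham library. The log2 fold change was 1.63 (SE 0.337, adjusted p = 0.0129), and 2.16 (adjusted p = 0.000389) without the 2 libraries that stood apart. It passed with any 1 library left out (adjusted p 0.00254 to 0.0434).

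The remaining precursors were near the limit of these libraries. Pomc (chr12:3954951-3960642, plus strand) had 8 to 27 counts in mouse and 27 to 41 in rat, with log2 fold changes by injury of 0.17 in BALB/c (95% interval -0.32 to 0.66), -0.09 in B10.D2 (-0.59 to 0.41) and -0.34 in rat (-0.85 to 0.18, or -0.38 without the 2 libraries that stood apart). Pnoc (chr14:65400673-65425472, minus strand) had 1 to 14 counts in any mouse library. By group it had 4 to 14 counts in BALB/c sham, 2 to 8 in BALB/c SNI, 1 to 4 in B10.D2 sham and 1 to 5 in B10.D2 SNI. With no filter on low counts, Pnoc in B10.D2 sham stood below BALB/c sham by -2.10 on the log2 scale (SE 0.548, adjusted p = 0.00548), a value that rests on counts of 1 and 2 in 4 of the 5 B10.D2 libraries. In rat Pnoc was listed at 0 in all 8 libraries, and so were 20 of the 20 protein-coding genes nearest to it by mouse order, against 0 to 2 of 20 for each other member.

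**Figure D3:**
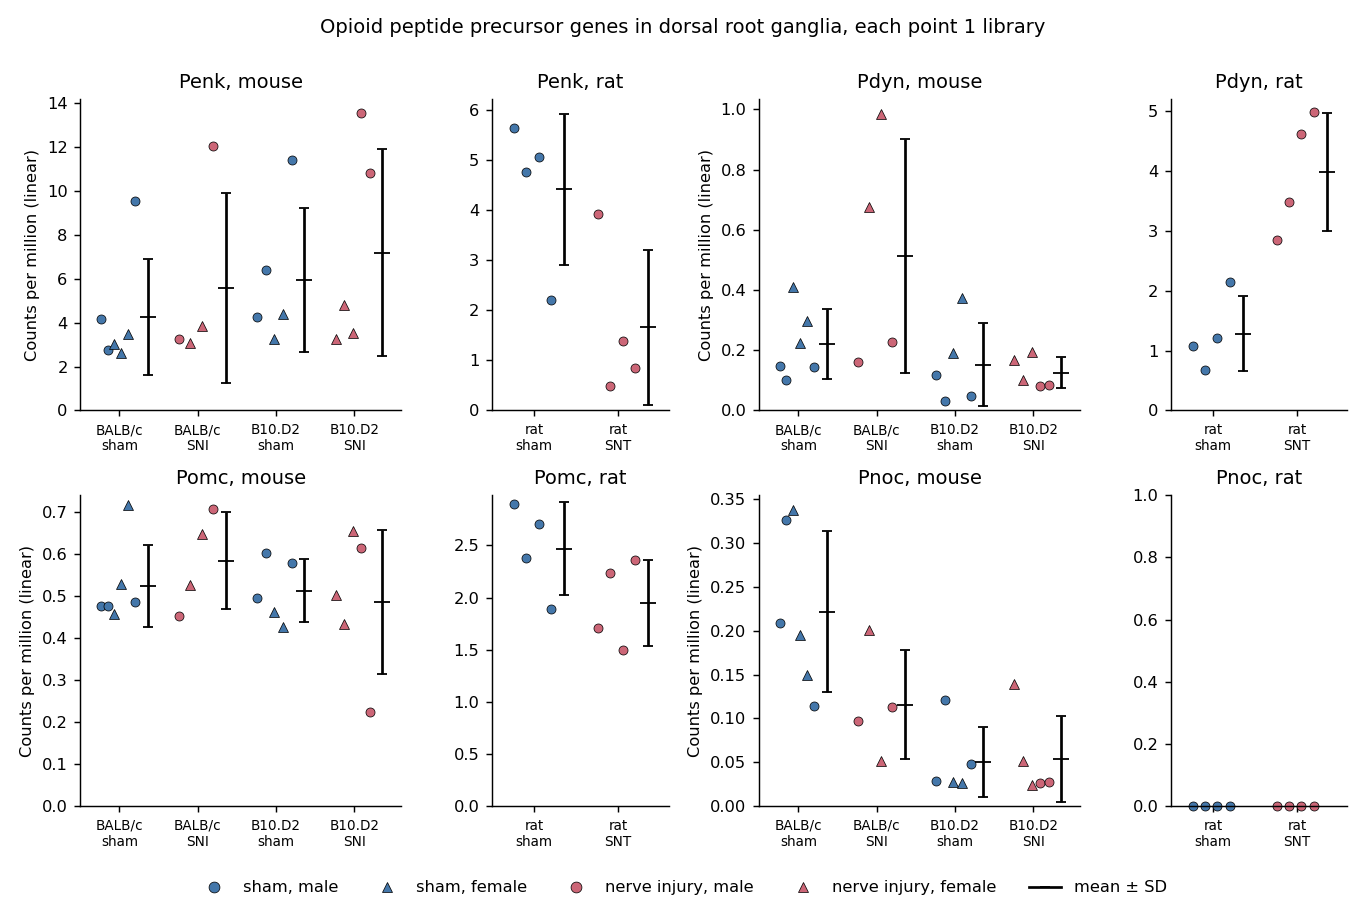
CPM (vertical, linear) of the 4 peptide precursor genes in every library, mouse and rat on separate axes, with circles for males, triangles for females and bars for the mean ± SD. Pdyn shows 2 high BALB/c SNI females and a separation of sham from SNT in rat, Penk shows 5 male mouse libraries above 9.5 CPM, and Pnoc is listed at 0 in rat.

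**Figure D4:**
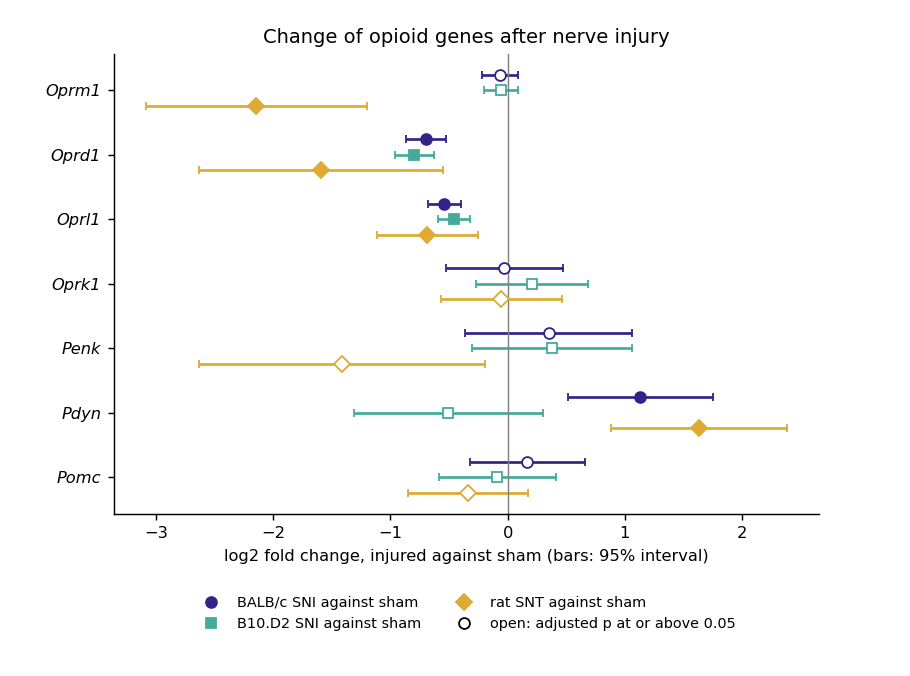
Log2 fold change of injured against sham (horizontal) for the 7 tested members in the 3 comparisons, with bars for the 95% interval and filled symbols where the adjusted p is under 0.05. Oprd1 and Oprl1 are filled and below 0 in all 3, Oprm1 only in rat, and Pdyn is filled and above 0 in BALB/c and rat.

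Assembled transcripts outside gene models lay beside Oprd1 and Oprl1. LncRNA4714 (chr4:132078749-132109721, mm10) lies on the same strand as Oprd1 on its 3′ side. Between it and the GENCODE end of Oprd1 lie 1004 bases, and 466 to the RefSeq end, which reaches further. The authors extended gene models by 1000 bases before assembly, so this near edge lies where that extension stops. It need not be the end of a transcript. The paper names LncRNA4714 as the exception among its PCR-tested LncRNAs, with a predicted lengthened 3′ untranslated region at its gene. It describes LncRNA4714 as much longer than that region. LncRNA4714 was assembled from 10 exons, of which the nearest to Oprd1 holds 3422 bases. None of its 9 gaps matched a deposited splice junction. No deposited junction joined it to Oprd1, and 2 lay within Oprd1. LncRNA4714 and the rat LncRNA2301 were singled out by the study on these libraries, so their direction here is not independent evidence. The paper also reports that quantitative PCR found LncRNA4714 changed after injury in mouse.

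LncRNA4714 measured 12.7 to 17.4 CPM (median 15.1) in the 6 BALB/c sham libraries and 8.25, 8.68, 8.89 and 9.08 CPM in SNI. In B10.D2 it measured 13.7, 14.4, 14.7, 15.03 and 15.1 CPM in sham and 8.21, 8.86, 9.33, 9.77 and 10.49 CPM in SNI. The groups did not overlap in either strain. The log2 fold changes were -0.77 in BALB/c (SE 0.084, adjusted p = 3.25e-06) and -0.66 in B10.D2 (SE 0.081, adjusted p = 4.18e-05), of the same sign as those of Oprd1.

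The count ratio of LncRNA4714 to Oprd1 within a library was 0.732 ± 0.0561 (SD, n = 6) in BALB/c sham and 0.696 ± 0.0520 (n = 4) after SNI, with an exact permutation p = 0.371 (two-sided). In B10.D2 it was 0.655 ± 0.0392 (n = 5) in sham and 0.729 ± 0.0508 (n = 5) after SNI, with an exact permutation p = 0.0317, or 0.0635 adjusted over the 6 ratios tested. Beside Oprl1 the picture differed. LncRNA385 (chr2:181604339-181713362, plus strand), on the 5′ side of Oprl1 and the same strand, changed by -0.01 in BALB/c (95% interval -0.19 to 0.17) and 0.08 in B10.D2 (-0.10 to 0.26). It was assembled from 25 exons. None of its 24 gaps matched a deposited splice junction, while 38 junctions on its strand overlapped its span. Its count ratio to Oprl1 went from 0.315 ± 0.0393 (n = 6) to 0.451 ± 0.0372 (n = 4) in BALB/c (exact permutation p = 0.00952) and from 0.307 ± 0.0298 (n = 5) to 0.456 ± 0.0706 (n = 5) in B10.D2 (exact permutation p = 0.0159), both 0.0476 after adjustment. With LncRNA385 nearly flat, this rise restates the fall of Oprl1 in the same libraries and is not a separate result.

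In rat, LncRNA2301 (chr3:177232664-177239901 in rn6, plus strand), listed by the study with Oprl1 as the nearest gene, measured 90.8, 148, 121 and 79.3 CPM in sham libraries 1 to 4 and 77.6, 42.9, 46.7 and 64.4 CPM in SNT libraries 1 to 4. The groups did not overlap. Its log2 fold change was -0.92 (SE 0.235, adjusted p = 0.0203), or -1.22 (adjusted p = 0.0012) without the 2 libraries that stood apart, and it did not pass without sham library 2 or 3 or SNT library 2 or 3 (adjusted p 0.0541 to 0.0593), the same 4 libraries as for Oprl1. Its ratio to Oprl1 was 0.750 ± 0.0760 in sham and 0.639 ± 0.0540 in SNT (n = 4 each, exact permutation p = 0.0571). LncRNA2300, 8648 bases from it, changed by -0.46 (adjusted p = 0.0719, or -0.45 and 0.109 without the 2), and LncRNA72, listed with Oprm1, had 1 to 11 counts and was not tested. The rat distances to the genes were not determined here.

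**Figure D5:**
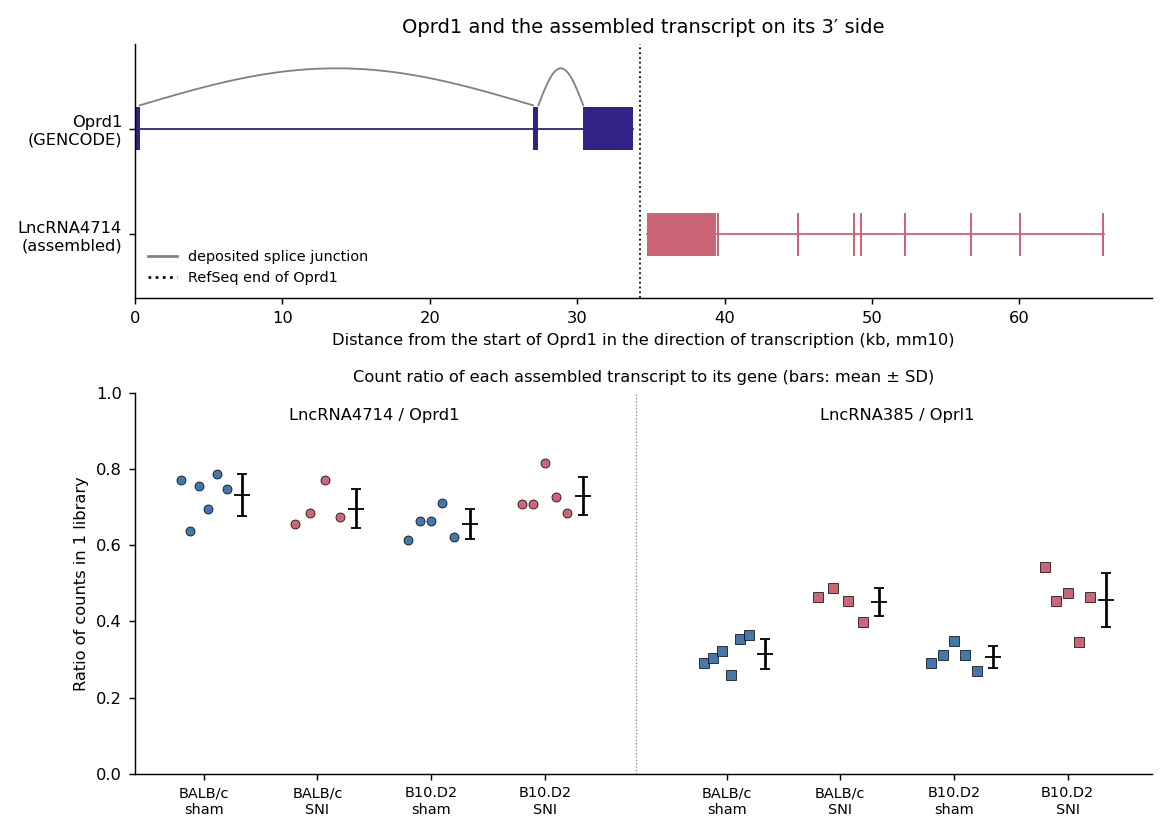
Upper panel, Oprd1 and LncRNA4714 by distance from the Oprd1 start in kb with exons as boxes and deposited junctions as arcs. Lower panel, count ratio of LncRNA4714 to Oprd1 and of LncRNA385 to Oprl1 in each mouse library, where the first ranges over 0.614 to 0.816 in all groups and the second has sham means near 0.31 and SNI means near 0.45.

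Genes that make, break down or transmit opioid peptides were counted in 5 lists of 37 genes. In BALB/c 7 of the 36 tested (19.4%) passed after SNI, 2 higher and 5 lower, against 9.69% of all features, and the median log2 fold change was -0.04 against 0.00 over all features. In B10.D2 1 of 36 passed (2.78%), against 4.58%. In rat 7 of 22 passed (31.8%), 3 higher and 4 lower, against 27.4%. In BALB/c the potassium channel subunits Kcnj3 and Kcnj9, which opioid receptors open through G proteins, fell by 0.52 (adjusted p = 0.000126) and by 0.73 (adjusted p = 0.000785) on the log2 scale. Kcnj3 went from 31.0 ± 2.37 CPM (n = 6) to 21.7 ± 1.43 (n = 4) and Kcnj9 from 3.45 ± 0.469 to 2.08 ± 0.267.

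The inhibitory G protein subunit Gnai1 was lower in both strains, by -0.28 in BALB/c (adjusted p = 0.00157) and -0.32 in B10.D2 (adjusted p = 0.00061), while Gnai2 (0.18) and Gnai3 (0.17) were higher in BALB/c. The precursor-cleaving Pcsk2 was -0.28 (adjusted p = 0.00462) and neprilysin, Mme, -0.38 (adjusted p = 0.0410) in BALB/c. In rat Pcsk2 (-0.98, adjusted p = 0.0151) and its chaperone Scg5 (-1.08, adjusted p = 0.0176) were lower, as were Kcnj3 (-1.11, adjusted p = 0.0376) and Kcnj5 (-1.12, adjusted p = 0.0138). Mme (0.97, adjusted p = 0.0217), Gnai3 (0.33, adjusted p = 0.0398) and Arrb1 (0.53, adjusted p = 0.0319), a beta-arrestin that binds activated receptors, were higher. Without the 2 libraries that stood apart 12 of the 22 passed, with these 7 among them, where 6100 of 13892 features passed in all. Pcsk2 was then -1.29, Scg5 -1.49, Kcnj3 -1.62, Kcnj5 -1.39, Mme 1.10, Gnai3 0.41 and Arrb1 0.66. Mme had opposite signs in BALB/c and rat. Scg5 differed between the sham strains by -2.06 (SE 0.057, adjusted p = 6.09e-17), with 285 ± 10.9 CPM in BALB/c (n = 6) and 68.3 ± 2.83 in B10.D2 (n = 5).

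The genes whose pattern over the 20 mouse libraries was closest to each member, by the root mean square difference of centred log2(CPM + 1), were sought among annotated genes at least as variable as the member, for the 5 members with a mean of at least 1 CPM. For Oprl1 they were Scn1a (0.0696), Vamp1 (0.0995) and Map7d2 (0.101), against a standard deviation of 0.275 for Oprl1. For Oprm1 they were Nrxn3 (0.104), Khdrbs1 (0.108) and Rec8 (0.110), against 0.365. For Oprd1 they were Kcng4 (0.179), Lhfpl1 (0.187) and Rgs6 (0.192), against 0.374. Oprk1 had Syt16 (0.238), Casr (0.241) and Galr1 (0.245) at 0.368, and the closest to Penk, Srd5a2 (0.609), Ccdc40 (0.730) and Hoxc11 (0.737), were about as far off as its own standard deviation of 0.674.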

How the data were processed

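RNA from mouse and rat DRG was sequenced as strand-specific read pairs. The authors mapped reads with STAR to mm10 (GRCm38) and rn6 (Rnor_6.0), handled alignments with SAMtools and counted read pairs per gene with HTSeq. Versions were not given in the sources used here. The deposited tables hold these raw counts. They cover annotated genes and LncRNAs that the authors assembled outside gene models extended by 1000 bases, and the study's DESeq2 fold changes and p-values were not used. Counts were fitted here with edgeR 4.0.16 (R 4.3.3), with TMM scaling, filterByExpr, the quasi-likelihood F test and Benjamini-Hochberg adjustment over 24685 mouse and 13690 rat features. The mouse model was strain by surgery plus sex, and the rat model surgery alone. CPM uses the TMM library sizes. The scripts were tested on simulated data. Each mouse library is 1 animal and each rat library a pool of 3. Single-value permutation tests used scipy 1.17.1. DESeq2 1.42.0 and other filters were alternatives.

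All members, the named lists and the motifs were chosen with earlier results of these data known. Named genes were the 8 members, assembled LncRNAs within 10000 bases of a mouse member or listed with a rat member, list genes passing in a surgery comparison, and, for members with a mean of at least 1 CPM, the 3 genes most alike. The strain values of Scg5 and the non-neuronal marker genes were added after they were seen. Symbols came from the deposited tables, positions from GENCODE M21 and promoters from RefSeq. A floor of 3 counts was used for detection.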

Additional observations from a re-analysis of the deposited data

Results flagged for a closer look

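A sample far from the others of its group (Dixon's ratio at the 95% level) was found 6 times in 60 gene-by-group sets, where chance gives about 3. Penk was far above its group in BALB/c sham library 71, at 9.56 CPM against 2.62 to 4.17 in the other 5, and in BALB/c SNI library 70, at 12.1 CPM against 3.08 to 3.86 in the other 3. Both are male libraries. Oprm1 was far below its group in B10.D2 sham library 58, at 45.5 CPM against 54.6 to 58 in the other 4, and this library still stood above every BALB/c library. Pomc was high in BALB/c sham library 57, at 0.716 CPM against 0.459 to 0.530. Pnoc was high in B10.D2 SNI library 69, at 0.140 CPM from 5 counts, and in B10.D2 sham library 60, at 0.121 CPM from 4 counts.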

How the results depend on the processing

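Of 406 values of single genes under other settings, 378 kept their direction and side of the threshold, 8 lost and 5 gained the call, and 15 changed sign. The cause was not tested. No member that passed changed sign. Leaving out 1 library moved the count of members passing to 2 to 3 in BALB/c (3 otherwise), 2 to 3 between the SNI strains (2 otherwise, Oprk1 added), 1 to 2 for sex and 2 to 5 in rat, of assembled LncRNAs in rat to 0 to 1, and of list genes to 4 to 8 in BALB/c, 1 to 2 in B10.D2, 4 to 9 between the SNI strains, 0 to 2 for sex and 3 to 10 in rat. Over all features, 1643 to 2649 then passed in BALB/c (2392 otherwise) and 665 to 1214 in B10.D2 (1130 otherwise). In rat 1483 to 5041 did (3753 otherwise), between the SNI strains 4217 to 5269 (5144) and for sex 35 to 159 (60). DESeq2 and no filter each passed 2 members between the sham strains (1 otherwise, the added gene being Pnoc) and 3 list genes for sex (1 otherwise). Over all features they passed 5629 and 5507 between the sham strains (5322 otherwise) and 240 and 222 for sex. DESeq2 passed 1 member for sex, since it gave Pdyn no adjusted p. A minimum of 10 counts in every library, which drops Pdyn, passed 1 member for sex and 1 between the SNI strains (47 and 4095 features in all). Each strain fitted alone passed 2 list genes in B10.D2, where 921 features passed in all. Among males alone, with fewer libraries, 1 list gene passed in BALB/c, and in B10.D2 1 member, 0 LncRNAs and 0 list genes did, Oprl1 there changing by -0.43 (adjusted p = 0.133) and LncRNA4714 by -0.53 (adjusted p = 0.0833). Males alone passed 1 member and 3 list genes between the SNI strains, and females alone passed 4 list genes in BALB/c and 2 between the sham strains. Over all features, males alone passed 415 in BALB/c, 95 in B10.D2 and 2250 between the SNI strains. Females alone passed 902 in BALB/c and 2611 between the sham strains, so the whole number of calls fell as well. Without the 2 rat libraries that stood apart 12 list genes passed, where 6100 of 13892 features did. These 2 were the libraries nearest the other group, so leaving them out tends to raise the number of calls.

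The titles of the rat libraries share a number across groups, and the labels do not say what it marks. Same-numbered libraries did not deviate together (correlations 0.05, -0.29, -0.11 and -0.09), so the numbers were not treated as pairs. With the replicate block, Oprd1 (-1.55, adjusted p = 0.0961), Oprl1 (-0.68, 0.0922) and LncRNA2301 (-0.91, 0.0703) lost the call, leaving 0 LncRNAs, Penk gained it (-1.65, 0.0471), and Oprm1 (-2.29, 0.0281) and Pdyn (1.71, 0.0273) kept it. Over all features 2558 passed with the block, against 3753 without it.

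Signs changed only in values that did not pass. By SNI in BALB/c, Oprk1 was 0.26 and LncRNA385 0.022 in females. By SNI in B10.D2, Oprm1 was 0.0026 and Oprk1 -0.11 in males, and Pomc 0.25 in females. Between the sham strains, males gave Pomc 0.22 and LncRNA4714 0.089. Between the SNI strains, Oprl1 was 3.4e-05 with no filter and 0.0097 in males, and females gave Oprd1 -0.0046 and LncRNA385 0.054. For the interaction, Penk was -0.12 without sex in the model and -0.18 in females, where Oprm1 was -0.059 and Pomc 0.20. With 1 library left out, the ranges that crossed 0 were -0.15 to 0.041 (Oprk1), -0.029 to 0.63 (Penk) and -0.10 to 0.055 (LncRNA385) by SNI in BALB/c, -0.087 to 0.33 (Oprk1) and -0.23 to 0.12 (Pomc) by SNI in B10.D2, and -0.18 to 0.099 (Oprk1) in rat. For the interaction they were -0.046 to 0.051 (Oprm1), -0.069 to 0.35 (Oprk1) and -0.23 to 0.39 (Penk). Between the sham strains they were -0.079 to 0.082 (Pomc) and -0.058 to 0.025 (LncRNA4714), and between the SNI strains -0.017 to 0.078 (Oprd1), -0.039 to 0.037 (Oprl1) and -0.079 to 0.063 (LncRNA385). For sex they were -0.0013 to 0.051 (Oprm1), -0.012 to 0.051 (Oprd1), -0.15 to 0.045 (Pomc) and -0.039 to 0.027 (LncRNA385).

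Depth limits Pdyn and Pnoc in mouse, where 3 counts equal 0.0716 to 0.100 CPM, and Oprd1, Pdyn and Penk in rat, where they equal 0.168 to 0.251 CPM. These limits cover counting error only.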
